A study of Rattus norvegicus with 16 samples.

Results

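Bulk RNA-Seq of rat kidney was examined for 4 Ensembl gene IDs, ENSRNOG00000018294, ENSRNOG00000026963, ENSRNOG00000017801 and ENSRNOG00000006789, out of 32623 in the tables. The IDs were drawn up as a list of endoplasmic reticulum (ER) stress genes, namely the chaperones Hspa5 and Hsp90b1 and the transcription factors Atf4 and Ddit3. The tables used here give IDs without gene symbols, and the rat gene table at hand paired 0 of the 4 IDs with a symbol. Levels are therefore given by ID, and no role is attached to a single row. All 4 IDs passed the filter on low counts, with 14628 IDs tested in total.

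The ER folds secreted and membrane proteins. When unfolded proteins accumulate in it, sensor proteins in its membrane start the unfolded protein response, which raises ER chaperones and slows general protein synthesis. Hspa5 (BiP) is the main ER chaperone and holds the sensors inactive in the unstressed cell, and Hsp90b1 (GRP94) is the ER member of the Hsp90 family. Atf4 is made after phosphorylation of eIF2alpha and drives genes of amino acid supply, and Ddit3 (CHOP) acts downstream of it and is linked to cell death under prolonged stress. In the kidney this response is studied in protein overload and tubular injury.

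The samples were whole kidneys of Sprague-Dawley rats, in 4 groups of 4 libraries labelled Control, DOCA, DOCA+Finerenone and DOCA + Spironolactone. DOCA (deoxycorticosterone acetate) activates the mineralocorticoid receptor, and finerenone and spironolactone are antagonists of the mineralocorticoid receptor. The labels give 6 weeks as the age, and the same number of weeks is the time from the start of DOCA injections to collection in the methods, so the label may stand for treatment time. Per the study's methods the rats were male. All groups other than control had a kidney removed, weekly DOCA injections and salt in the drinking water, with vehicle or drug by gavage, whereas control rats had a sham operation and tap water. A comparison with control therefore covers nephrectomy, DOCA and salt together, and these cannot be told apart. Whole kidney mixes many cell types, so fewer cells of a type and less RNA per cell cannot be told apart either. The labels do not state that the libraries of a group came from separate animals, so p-values measure the spread between these libraries.

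Total estimated counts were between 7063158 and 8056929 in 15 libraries and 10932887 in spironolactone replicate 4. DOCA replicate 4 and spironolactone replicate 4, taken to be the outliers set aside by the study, were left out of the main tests but are described with the others, so tests used 14 libraries. Levels are given as CPM, counts relative to a library total of 1000000 after TMM scaling, in which the total is corrected for a few very abundant transcripts. A call required an edgeR adjusted p under 0.05 and a log2 fold change of 0.5 or more in either direction.

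The 4 IDs lay at different levels in the kidney. Compared per transcript length, as TPM, ENSRNOG00000018294 was the highest of the 4 in 16 of 16 libraries, with 188.4 to 445.7 TPM. ENSRNOG00000026963 followed with 125.8 to 282.8 TPM, and ENSRNOG00000017801 had 126.8 to 218.1 TPM. ENSRNOG00000026963 was above ENSRNOG00000017801 in 12 of 16 libraries, with control replicates 1 and 2, DOCA replicate 4 and finerenone replicate 2 in the opposite order. ENSRNOG00000006789 was the lowest in every library, with 33.6 to 73.2 TPM. By TPM, ENSRNOG00000018294 ranked between 291 and 619 among all IDs of a library, and ENSRNOG00000006789 ranked between 1468 and 3363. The estimated counts of ENSRNOG00000006789 were between 143 and 322, for which counting alone gives an SD of 5.57% to 8.36%, compared with 1.02% to 1.74% for ENSRNOG00000018294.

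In TMM-scaled CPM, ENSRNOG00000018294 had 910.6, 522.1, 610.7 and 1033 in control replicates 1 to 4. In DOCA it had 485.3, 553.8, 837.3 and 511.2. In finerenone it had 601.2, 556.5, 619.1 and 593.9, and in spironolactone 562.3, 623.9, 650.3 and 796.5. All 4 groups overlapped. Control replicates 1 and 4 and DOCA replicate 3 were the highest libraries, and the 4 finerenone libraries lay close together. The group mean was highest for control libraries, at 769.1 ± 242 CPM (SD, n = 4), followed by 625.4 ± 187 (SD, n = 3) for DOCA, 612.2 ± 45.2 (SD, n = 3) for spironolactone and 592.7 ± 26.3 (SD, n = 4) for finerenone. No neighbouring groups in that order differed by edgeR's test, with adjusted p between 0.321 and 1.00.

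ENSRNOG00000026963 had 510.0, 385.0, 472.6 and 707.9 CPM in control and 432.0, 498.6, 587.0 and 464.2 CPM in DOCA replicates 1 to 4. In finerenone it had 529.9, 513.5, 537.4 and 563.0 CPM, and in spironolactone 510.9, 536.1, 512.2 and 545.4 CPM. The control libraries spanned the range of all other groups. In CPM its means were the closest of the 4 IDs, with 536.0 ± 20.6 CPM (SD, n = 4) for finerenone, 519.7 ± 14.2 (SD, n = 3) for spironolactone, 518.9 ± 136 (SD, n = 4) for control and 505.9 ± 77.7 (SD, n = 3) for DOCA. Neighbouring groups had edgeR adjusted p between 0.873 and 0.992. In TPM its means ran from 173.1 (control) to 248.3 (spironolactone), farther apart than those of ENSRNOG00000017801, at 147.9 (control) to 168.7 (finerenone).

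ENSRNOG00000017801 had 237.5, 174.0, 173.0 and 219.0 CPM in control replicates 1 to 4. In DOCA it had 167.0, 162.1, 143.0 and 224.7 CPM, the last in the library left out of the tests. In finerenone it had 208.3, 235.3, 176.4 and 221.8 CPM, and in spironolactone 156.9, 161.4, 157.3 and 158.1 CPM. All spironolactone libraries lay below every control and finerenone library. The 3 tested DOCA libraries also lay below every control and finerenone library, but DOCA replicate 4 was within their range. Means were 210.4 ± 25.2 CPM (SD, n = 4) in finerenone, 200.9 ± 32.5 (SD, n = 4) in control, 158.5 ± 2.50 (SD, n = 3) in spironolactone and 157.4 ± 12.7 (SD, n = 3) in DOCA.

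ENSRNOG00000006789 had 47.7, 24.7, 25.4 and 52.1 CPM in control replicates 1 to 4, 2 high and 2 low libraries. In DOCA it had 16.9, 25.7, 25.6 and 28.1 CPM, overlapping the low control libraries. In finerenone it had 31.4, 30.8, 27.5 and 31.5 CPM, between both pairs of control libraries. In spironolactone it had 17.9, 17.4, 19.6 and 21.8 CPM, below every control and finerenone library. The means were ordered control, finerenone, DOCA and spironolactone, with 37.5 ± 14.4 CPM (SD, n = 4), 30.3 ± 1.88 (SD, n = 4), 22.7 ± 5.07 (SD, n = 3) and 18.3 ± 1.18 (SD, n = 3). No neighbouring groups in that order passed edgeR's test, with adjusted p between 0.239 and 1.00.

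**Figure D1:**
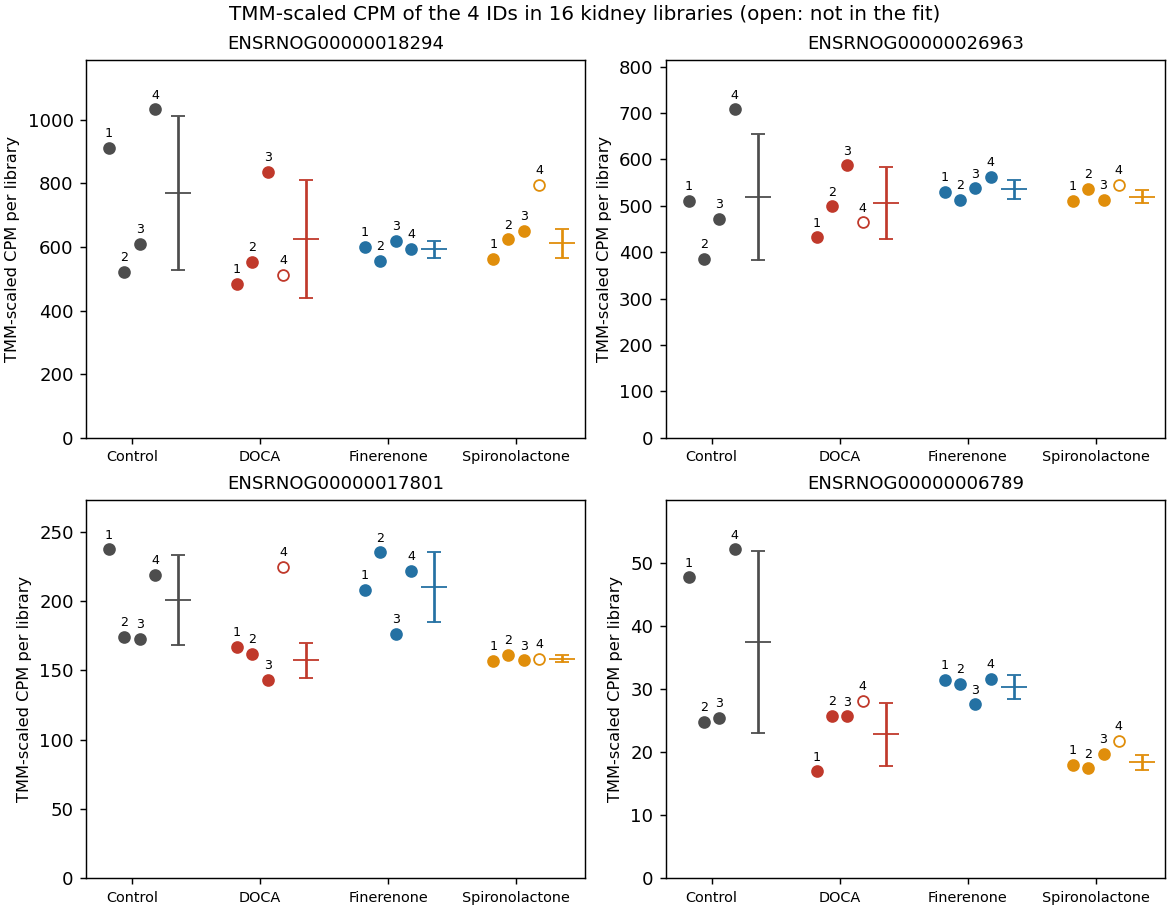
TMM-scaled CPM (linear axis from 0) of each ID in the 16 libraries by group, with replicate numbers beside the points, open points for the 2 libraries left out of the tests, and the mean and SD of the tested libraries as a bar to the right of each group. For ENSRNOG00000006789 control replicates 1 and 4 stand at 47.7 and 52.1 CPM, above all other libraries, and the spironolactone libraries lie between 17.4 and 21.8 CPM.

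In TMM-scaled CPM all 4 IDs split the control libraries in the same way, with replicates 1 and 4 above replicates 2 and 3. In TPM this held for 3 of the 4, whereas ENSRNOG00000026963 had 160.1 TPM in replicate 1 and 168.7 TPM in replicate 3. Each library carries a code of 2 numbers in its description, and replicates 2 and 3 share the first number 12, whereas replicates 1 and 4 have 11 and 10. Of all IDs tested, 19.9% were higher in both of the latter libraries than in both with the number 12, and 18.2% were lower in both. The labels do not say what the first number stands for, and each first number occurs in a single group, so its part in the comparisons with control was not tested. This split was looked for after the values were seen.

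Whether the DOCA-salt model changes these transcripts was examined by comparing DOCA with control. ENSRNOG00000006789 fell to 0.608 of control, with a log2 fold change of -0.72 ± 0.24 (SE, 95% interval -1.23 to -0.21) and an edgeR adjusted p of 0.0278. It was the 1 ID of the 4 that was called, where 26.7% of all IDs tested were called in either direction. ENSRNOG00000017801 had a log2 fold change of -0.35 ± 0.12 (SE) and an edgeR adjusted p of 0.0266, a size below the fold threshold, so it was not called, although its tested libraries did not overlap (nor did those of 43% of all IDs). ENSRNOG00000018294 had -0.30 ± 0.22 (SE, interval -0.77 to 0.18, edgeR adjusted p of 0.321) and ENSRNOG00000026963 had -0.04 ± 0.15 (SE, interval -0.35 to 0.28, edgeR adjusted p of 0.873). The median of the 4 log2 fold changes was -0.33, beside 0.02 over all IDs tested. 

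The size of this fall was between -0.87 and -0.52 (log2) without each single library, but whether it passed the test depended on 3 of them. The edgeR adjusted p was 0.0767 without control replicate 4, 0.0816 without control replicate 1 and 0.123 without DOCA replicate 1, with log2 fold changes of -0.52, -0.58 and -0.54. It was 0.138 when only these groups were fitted, with a log2 fold change of -0.70. For ENSRNOG00000017801, adding the libraries left out moved the log2 fold change from -0.35 to -0.21 (edgeR adjusted p of 0.235). That adjusted p was also above 0.05 without control replicates 1 (0.0978) or 4 (0.0653) or DOCA replicates 2 (0.0540) or 3 (0.120). With upper quartile scaling it was 0.0991.

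**Figure D2:**
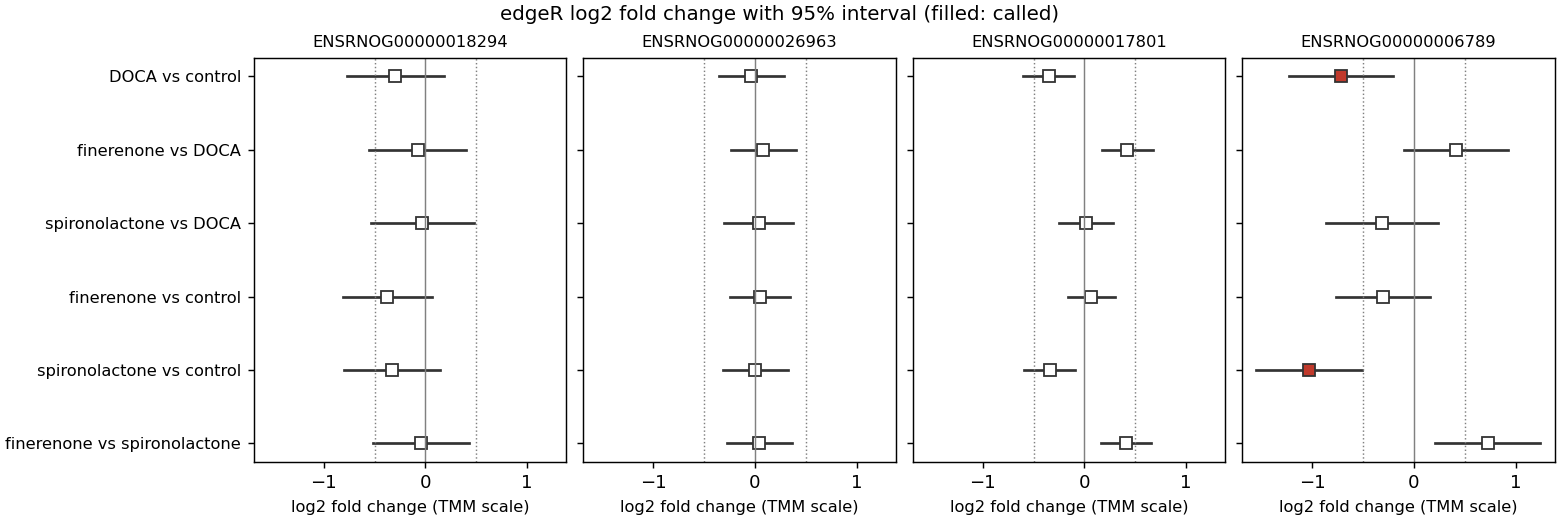
Log2 fold change (x axis, TMM scale) of each ID in the 6 comparisons, with 95% intervals, dotted lines at the fold threshold of 0.5 in either direction and filled squares for called results. The filled squares are those of ENSRNOG00000006789 in DOCA vs control (-0.72) and spironolactone vs control (-1.03).

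In DOCA compared with control, the direction of 3 of the 4 IDs depended on the scaling. TMM factors were 0.852 to 0.904 in control and 1.09 to 1.14 in DOCA libraries, and on the TPM scale (log2(TPM + 1)) the median of all IDs was 0.42 higher in DOCA than in control, compared with 0.02 after TMM. On that scale ENSRNOG00000018294 had a log2 fold change of 0.23, ENSRNOG00000026963 0.50, ENSRNOG00000017801 0.18 and ENSRNOG00000006789 -0.18, no longer a call (limma adjusted p of 0.488). After subtraction of the median of all IDs these were -0.19, 0.08, -0.25 and -0.60, compared with -0.32, -0.06, -0.38 and -0.74 after TMM. With log2(TPM + 0.1) in place of log2(TPM + 1) they were -0.30, -0.03, -0.35 and -0.71, closer to those after TMM. A change of scaling moves all IDs by nearly the same amount, so the order of the 4 relative to all other IDs could hardly change. It was the same on both scales, with ENSRNOG00000006789 the lowest, and this is no separate check of the fall.

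**Figure D3:**
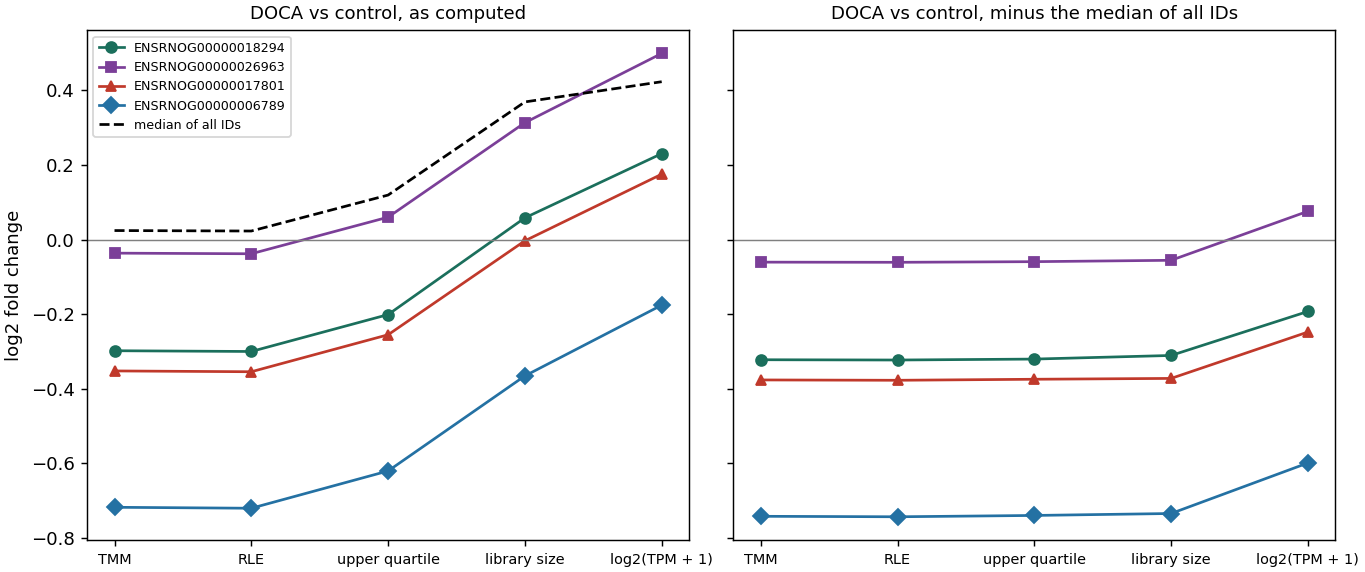
Log2 fold change of DOCA vs control for the 4 IDs and the median of all IDs (dashed line) under 5 scalings, as computed at left and after subtraction of that median at right. At left 3 of the 4 IDs cross 0 between TMM and TPM. At right the shift shared by all IDs is removed, which leaves ENSRNOG00000006789 between -0.74 and -0.60.

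The effect of finerenone in the model was examined against DOCA rats. None of the 4 IDs was called, where 13.7% of all IDs tested were called. ENSRNOG00000017801 was closest, at 1.34 times DOCA with a log2 fold change of 0.42 ± 0.12 (SE, interval 0.17 to 0.67). Its edgeR adjusted p was 0.0183, but its size was below the fold threshold. Neither its tested libraries nor those of ENSRNOG00000006789 overlapped between both groups, as for 32.4% of all IDs. With DOCA replicate 4 counted, the groups overlapped for each of these IDs. Without finerenone replicate 3, ENSRNOG00000017801 was called, with a log2 fold change of 0.52 and an edgeR adjusted p of 0.00518, and with all 16 libraries it had 0.27 with an edgeR adjusted p of 0.149. On the TPM scale it had 0.02, where the median of all IDs was -0.34, and it was 0.36 above that median. ENSRNOG00000006789 had 0.41 ± 0.24 (SE, interval -0.09 to 0.92, edgeR adjusted p of 0.239). ENSRNOG00000026963 had 0.08 ± 0.15 (SE, interval -0.24 to 0.40) and ENSRNOG00000018294 had -0.08 ± 0.22 (SE, interval -0.55 to 0.40), and their edgeR adjusted p were 0.742 and 0.840. Leaving out DOCA replicate 3, its highest DOCA library, gave 0.19 for ENSRNOG00000018294.

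Spironolactone was compared with DOCA in the same way. None of the 4 IDs was called by edgeR's quasi-likelihood test, nor was any other ID (0% of all tested). Of 14628 IDs, 578 had an unadjusted edgeR p under 0.05, a smaller share than the 0.05 expected if no ID differed. DESeq2 called 11 IDs and the edgeR likelihood ratio test 7, none of them among the 4. The log2 fold changes were -0.03 ± 0.23 (SE, interval -0.54 to 0.47) for ENSRNOG00000018294, 0.04 ± 0.16 (SE, interval -0.30 to 0.38) for ENSRNOG00000026963 and 0.01 ± 0.13 (SE, interval -0.25 to 0.28) for ENSRNOG00000017801. ENSRNOG00000006789 had -0.31 ± 0.26 (SE, interval -0.86 to 0.24), with DOCA replicate 1 as low as the spironolactone libraries. The intervals of ENSRNOG00000018294 and ENSRNOG00000006789 include changes of the size of the fold threshold, and those of the other two do not. None of the 4 IDs had groups without overlap, where 10.6% of all IDs did.

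Finerenone rats were next set against control. None of the 4 IDs was called, where 4.18% of all IDs tested were called. The log2 fold change was -0.38 ± 0.20 (SE, interval -0.81 to 0.06, edgeR adjusted p of 0.318) for ENSRNOG00000018294 and -0.30 ± 0.22 (SE, interval -0.77 to 0.16, edgeR adjusted p of 0.467) for ENSRNOG00000006789. It was 0.07 ± 0.11 (SE, interval -0.16 to 0.30) for ENSRNOG00000017801 and 0.05 ± 0.14 (SE, interval -0.25 to 0.34) for ENSRNOG00000026963. For each of the 4 IDs both groups overlapped, where 11.8% of all IDs did not.

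In spironolactone rats ENSRNOG00000006789 was 0.490 of control. The log2 fold change was -1.03 ± 0.24 (SE, interval -1.55 to -0.51), with an edgeR adjusted p of 0.00407, and all 4 spironolactone libraries (at most 21.8 CPM) lay below all 4 control libraries (at least 24.7 CPM). It was the 1 called ID of the 4, where 24.6% of all IDs tested were called in either direction and the CPM of 39.9% did not overlap. The control libraries are those of the DOCA comparison, so both comparisons share them. The call was kept without any single library, with edgeR adjusted p of at most 0.0222. On the TPM scale the log2 fold change was -0.51 with a limma adjusted p of 0.0527. ENSRNOG00000017801 had -0.34 ± 0.12 (SE) with an edgeR adjusted p of 0.0326, below the fold threshold, and its groups did not overlap. That adjusted p was 0.0157 to 0.117 when single libraries were left out. ENSRNOG00000018294 had -0.33 ± 0.22 (SE, edgeR adjusted p of 0.278) and ENSRNOG00000026963 0.00 ± 0.15 (SE, edgeR adjusted p of 0.992). On the TPM scale ENSRNOG00000026963 had a log2 fold change of 0.55 and a limma adjusted p of 0.0116. The median of all IDs was 0.41 there, and ENSRNOG00000026963 was 0.14 above that median. Its difference from the median of all IDs was 0.04 with log2(TPM + 0.1) and -0.01 after TMM.

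Both drugs were compared directly, each given with DOCA and salt. ENSRNOG00000006789 was 1.65 times as high in finerenone as in spironolactone rats, with a log2 fold change of 0.73 ± 0.24 (SE, interval 0.21 to 1.24). Its edgeR adjusted p of 0.0504 missed the threshold, although all finerenone libraries (at least 27.5 CPM) lay above all spironolactone libraries (at most 21.8 CPM), as did 28% of all IDs tested in one direction or the other. Of 14 alternatives 5 called it, with adjusted p from 0.00288 when only both drug groups were fitted to 0.196 with libraries of the same first code number summed. On the TPM scale the log2 fold change was 0.41, or 0.75 above the median of all IDs. ENSRNOG00000017801 had 0.41 ± 0.12 (SE, interval 0.16 to 0.66) and an edgeR adjusted p of 0.0232, below the fold threshold, again with no overlap. ENSRNOG00000018294 and ENSRNOG00000026963 had -0.05 ± 0.22 (SE, interval -0.52 to 0.43) and 0.04 ± 0.15 (SE, interval -0.27 to 0.36). None of the 4 IDs was called, where 11.4% of all IDs tested were called.

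For the 4 IDs the spread in CPM between the tested libraries of a group was widest in control. The coefficient of variation (CV) of CPM was highest in control for 4 of the 4 IDs, as for 31.9% of all IDs. For 32% of all IDs it was highest in finerenone. For ENSRNOG00000006789 the CV was 38.6% in control, 22.3% in DOCA and at most 6.43% in both drug groups, beside medians over all IDs of 16.4% in control, 11.8% in DOCA, 16.1% in finerenone and 13.4% in spironolactone. For ENSRNOG00000018294 the CVs of control and DOCA were close, at 31.5% and 29.8%, and in TPM their order was reversed, at 30.2% and 30.9%. With all 16 libraries the CV of ENSRNOG00000017801 was larger in DOCA (20.2%) than in control (16.2%). These CVs rest on 3 or 4 libraries each and were not tested against each other.

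The levels of some of the 4 IDs varied together. Over the 16 libraries, which share their source and scaling, Pearson's r of log2 CPM was 0.75 between ENSRNOG00000018294 and ENSRNOG00000026963 and 0.76 between ENSRNOG00000017801 and ENSRNOG00000006789, given as a description. ENSRNOG00000006789 had an r of 0.59 with ENSRNOG00000018294 and 0.47 with ENSRNOG00000026963, whereas ENSRNOG00000017801 had 0.10 and 0.14 with these. By ranks, Spearman's rho was 0.70 and 0.77 for the first pairs named. It was lower, at 0.27 and 0.35, for ENSRNOG00000006789 with ENSRNOG00000018294 and ENSRNOG00000026963, and -0.13 and -0.10 for ENSRNOG00000017801 with these. After subtraction of the group means ENSRNOG00000018294 and ENSRNOG00000026963 had an r of 0.87. On that basis ENSRNOG00000006789 had 0.77 with ENSRNOG00000018294, 0.74 with ENSRNOG00000026963 and 0.60 with ENSRNOG00000017801. The spread of ENSRNOG00000006789 was widest in control (CV 38.6%), where all 4 IDs split the libraries in the same way. That split therefore weighs heavily in these values, and Spearman's rho was not computed on this basis. Among 12439 IDs, ENSRNOG00000026963 was in place 12 of those most like ENSRNOG00000018294, and ENSRNOG00000018294 in place 7 of those most like ENSRNOG00000026963. ENSRNOG00000006789 was in place 104 of those most like ENSRNOG00000018294 and in place 264 of those most like ENSRNOG00000017801. No member was among the 2 IDs most like another. The most alike IDs were ENSRNOG00000021164 for ENSRNOG00000018294 (r = 0.92), ENSRNOG00000019834 for ENSRNOG00000026963 (r = 0.89), ENSRNOG00000029941 for ENSRNOG00000017801 (r = 0.94) and ENSRNOG00000015304 for ENSRNOG00000006789 (r = 0.93).

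**Figure D4:**
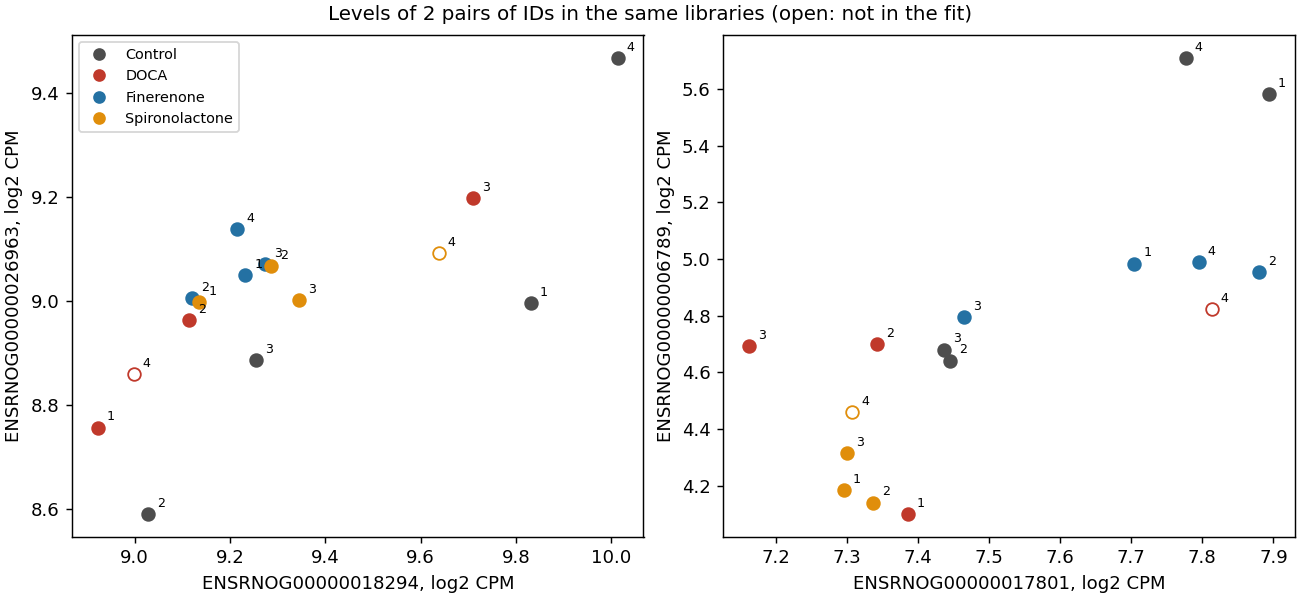
Log2 CPM of ENSRNOG00000026963 against ENSRNOG00000018294 (left) and of ENSRNOG00000006789 against ENSRNOG00000017801 (right), 1 point per library, coloured by group, with replicate numbers and open points for the libraries left out of the tests. Points rise together in both panels (r = 0.75 and 0.76), and at right spironolactone libraries lie at the lower left and control replicates 1 and 4 at the upper right.

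A ratio of TPM of a pair of IDs within a library does not depend on the library's scaling. The log2 ratio of ENSRNOG00000018294 to ENSRNOG00000006789 was 2.35, 2.40, 2.63 and 2.39 in control replicates 1 to 4 and 2.94, 2.49, 3.12 and 2.29 in DOCA. It was 2.29, 2.23, 2.53 and 2.31 in finerenone and 3.11, 3.32, 3.18 and 3.26 in spironolactone. Control replicates, which differed by over 2-fold in the level of ENSRNOG00000006789, thus differed little in this ratio (SD 0.13). Across control the log2 ratios of ENSRNOG00000026963 (SD 0.31) and ENSRNOG00000017801 (SD 0.33) to the same ID varied more. In the ratio of ENSRNOG00000018294 to ENSRNOG00000006789, spironolactone libraries were above every control and finerenone library. Of all IDs tested, however, the ratio to ENSRNOG00000006789 did not overlap for 52.2% between spironolactone and control and for 62.2% between spironolactone and finerenone. DOCA libraries 1 and 3 lay near the spironolactone libraries, whereas DOCA library 2 lay within the control range and DOCA library 4 just below it.

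For ENSRNOG00000026963 over ENSRNOG00000006789 the mean log2 ratio was 2.83 ± 0.13 (SD, n = 3) for spironolactone, 2.43 ± 0.22 (SD, n = 3) for DOCA, 2.05 ± 0.11 (SD, n = 4) for finerenone and 1.75 ± 0.31 (SD, n = 4) for control libraries. Spironolactone libraries, at 2.57 or above with all 4 counted, again lay above every control and finerenone library, whereas DOCA ranged from 2.01 to 2.63. For ENSRNOG00000017801 over ENSRNOG00000006789 spironolactone (1.93 to 2.38) lay above control (at most 1.83) but overlapped finerenone (1.73 to 2.01). ENSRNOG00000018294 over ENSRNOG00000026963 had its highest mean for control, at 0.69 ± 0.20 (SD, n = 4), beside 0.42 ± 0.21 (SD, n = 3) for DOCA, 0.38 ± 0.10 (SD, n = 3) for spironolactone and 0.29 ± 0.06 (SD, n = 4) for finerenone. All 4 finerenone libraries (at most 0.35) lay below all 4 control libraries (at least 0.51). Of all IDs, 4.99% did not overlap between these groups in their ratio to ENSRNOG00000026963, and 8.57% in their ratio to ENSRNOG00000018294. Of the 6 ratios among the 4 IDs this was the 1 without overlap between finerenone and control. There were 4 without overlap between spironolactone and control, 4 between spironolactone and finerenone, and 0 between DOCA and any other group. With each of the 4 IDs as denominator, 14.6% to 52.2% of all IDs did not overlap between spironolactone and control. This share was 18.7% to 62.2% between spironolactone and finerenone. For DOCA it was 15.2% to 25.9% against control, at most 27.5% against finerenone and at most 2.86% against spironolactone. The ratios shown were picked after the values were seen, and none was tested.

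**Figure D5:**
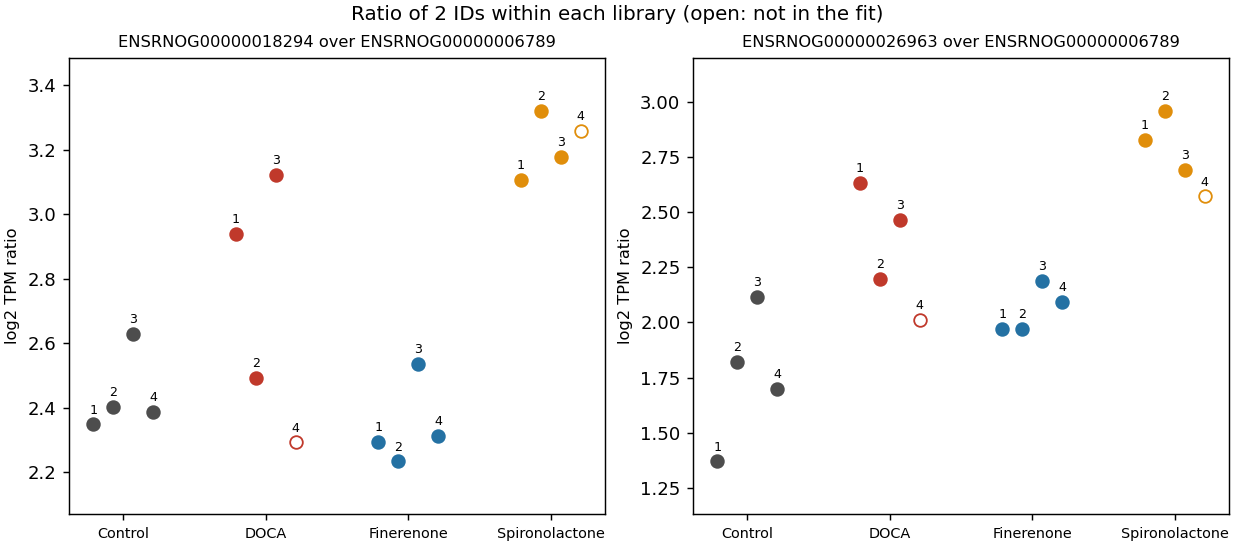
Log2 ratio of TPM within each library for ENSRNOG00000018294 over ENSRNOG00000006789 (left) and ENSRNOG00000026963 over ENSRNOG00000006789 (right), by group, with replicate numbers and open points for the libraries left out of the tests. Spironolactone libraries lie between 3.11 and 3.32 at left and between 2.57 and 2.96 at right, above all control and finerenone libraries.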

How the data were processed

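Bulk RNA-Seq was analyzed from 16 libraries, 4 per group. Per the submitters' processing notes and the study's methods, the authors trimmed reads with Trim Galore 0.4.5, aligned them with STAR 2.7.3a to the build rn6 (Rnor_6.0) and ran RSEM for quantification. The annotation is not given in the sources used here. The deposited estimated counts were neither scaled for depth nor for length, and 3.14% of them were not whole, so they were rounded. The deposited TPM values were scaled by the authors for length and to the same total per library, without correction for very abundant transcripts. RSEM shares reads among near-identical genes, so close copies add uncertainty.

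The test was that of edgeR 4.0.16 under R 4.3.3 (quasi-likelihood F test, robust, TMM), in a single fit of 4 groups with no block. Kept were IDs with a count above 4 in at least 3 of 14 libraries, 14628 in all. P-values were adjusted by Benjamini-Hochberg over all IDs. Standard errors were derived from each log2 fold change and its F value. Log2 CPM used a prior count of 2. Alternatives covered scaling, filters, DESeq2 1.42.0, limma 3.58.1 (limma-voom and log2(TPM + 1) or log2(TPM + 0.1)), all 16 libraries, pairs of groups, summed libraries, a replicate block and leaving out each library. The edgeR fit was tested on simulated data.

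The members and lists were chosen with earlier results of these data known. The named IDs are the 4 members in every comparison, and the IDs most like each member by Pearson correlation among those with a mean log2 CPM of at least 1. Lists of other ER stress genes and of kidney cell type markers could not be applied, since 0 of the IDs could be paired with a symbol (the RefSeq table, GRCr8, has 0 Ensembl IDs filled in). The labelled tissue was therefore not checked against markers, and no promoter is shown.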

Additional observations from a re-analysis of the deposited data

How the results depend on the processing

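The call of ENSRNOG00000006789 as lower in spironolactone than in control was kept under 12 of 14 alternatives and without each single library (log2 fold change -1.18 to -0.83), and was lost on the TPM scale (-0.51 and -0.52 with pseudocounts of 1 and 0.1). Its call in DOCA vs control was kept under 9 of 14 alternatives. It was lost with library size alone (-0.37), on the TPM scale (-0.18 and -0.18), with only those groups fitted (-0.70) and without 3 of the 14 libraries (range -0.87 to -0.52). In finerenone vs spironolactone it was called with filterByExpr (0.72), DESeq2 (0.74), the likelihood ratio test (0.73), all 16 libraries (0.66) and only those groups (0.72), and without control replicates 1, 2, 3 or 4 or DOCA replicate 1 (range over all libraries 0.69 to 0.80, edgeR adjusted p 0.0231 to 0.154). ENSRNOG00000017801 was called without finerenone replicate 3 in finerenone vs DOCA (range 0.35 to 0.52) and in finerenone vs spironolactone (range 0.35 to 0.51). Its edgeR adjusted p without single libraries was 0.00518 to 0.0902 and 0.00635 to 0.0740 in these comparisons. On log2(TPM + 0.1) ENSRNOG00000026963 was called as higher in DOCA than in control (limma adjusted p of 0.0201), and it was just below the fold threshold on log2(TPM + 1) (limma adjusted p of 0.0195). In DOCA vs control the number of members called was 1 (on log2(TPM + 0.1) ENSRNOG00000026963 in place of ENSRNOG00000006789), 0 with library size alone, log2(TPM + 1), only those groups or a log2 threshold of 1, 2 by adjusted p alone, and 0 to 1 when a library was left out. In finerenone vs DOCA it was 0, 1 by adjusted p alone, and 0 to 1 when a library was left out. In spironolactone vs control it was 1 (on both TPM scales ENSRNOG00000026963, as higher, in place of ENSRNOG00000006789) and 2 by adjusted p alone. In finerenone vs spironolactone it was 0, 1 with each alternative named above and by adjusted p alone, and 0 to 1 when a library was left out.

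Signs changed mostly for values near 0. With library size alone, ENSRNOG00000018294 had 0.058 in DOCA vs control, ENSRNOG00000026963 had 0.31 there, -0.17 in finerenone vs DOCA and -0.18 in finerenone vs spironolactone, and ENSRNOG00000017801 had -0.021 in spironolactone vs DOCA. With upper quartile scaling ENSRNOG00000026963 had 0.060 in DOCA vs control and -7.65e-05 in finerenone vs spironolactone, and ENSRNOG00000017801 had -0.00037 in spironolactone vs DOCA. On the TPM scale (pseudocounts of 1 and 0.1) ENSRNOG00000018294 had 0.23 and 0.23 in DOCA vs control, 0.0112 and 0.0113 in spironolactone vs DOCA and 0.24 and 0.24 in spironolactone vs control. ENSRNOG00000026963 had 0.50 and 0.50 in DOCA vs control, -0.30 and -0.30 in finerenone vs DOCA, -0.35 and -0.35 in finerenone vs spironolactone, and became a call in spironolactone vs control (0.55 and 0.56). ENSRNOG00000017801 had 0.18 and 0.18 in DOCA vs control and 0.18 and 0.18 in spironolactone vs control. With limma-voom ENSRNOG00000018294 had 0.0069 in spironolactone vs DOCA. With all 16 libraries it had 0.14 there and ENSRNOG00000017801 had -0.14. With libraries of the same first code number summed, ENSRNOG00000026963 had -0.019 in spironolactone vs DOCA, -0.035 in finerenone vs control and -0.089 in spironolactone vs control. When single libraries were left out, the log2 fold change of ENSRNOG00000026963 ranged from -0.16 to 0.15 in DOCA vs control, -0.019 to 0.20 in finerenone vs DOCA, -0.063 to 0.16 in spironolactone vs DOCA, -0.072 to 0.23 in finerenone vs control and -0.12 to 0.19 in spironolactone vs control. That of ENSRNOG00000018294 ranged from -0.23 to 0.19 in finerenone vs DOCA and -0.18 to 0.24 in spironolactone vs DOCA, and that of ENSRNOG00000017801 from -0.054 to 0.056 in spironolactone vs DOCA. Apart from the scaling, the cause was not tested.

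Replicate numbers were not taken to pair the libraries, since 4 of 19 same-numbered pairs had a correlation of deviations over 0.1 (3 of 54 pairs with different numbers), and 6 of 14 libraries correlated best with their own number. With a replicate block 3842 IDs were called in DOCA vs control (3902 without), and ENSRNOG00000006789 had -0.57 there with an adjusted p of 0.0945, which left 0 of the 4 IDs called. ENSRNOG00000026963 changed sign under the block, with 0.079 in DOCA vs control, -0.0033 in finerenone vs DOCA and -0.048 in finerenone vs spironolactone.

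Over all IDs the number called ranged from 1779 (log2 threshold of 1) to 6614 (log2(TPM + 0.1)) in DOCA vs control, 644 to 4557 in finerenone vs DOCA, 0 to 11 in spironolactone vs DOCA, 173 to 838 in finerenone vs control, 1674 to 6410 in spironolactone vs control and 481 to 4364 in finerenone vs spironolactone. The share of called IDs that were higher in DOCA than in control was 57.6%, and 69.3% with upper quartile scaling, 90.2% with library size alone and 94.7% on log2(TPM + 1). Depth limits ENSRNOG00000006789 most, with at most 322 counts in a library.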
